A study of Mus musculus with 216 samples.

Results

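The Sp100 family cluster of mouse chromosome 1 was described here at the 4 genes Sp100, Sp110, Sp140 and Csprs and over the stretch from 84 to 86 Mb that holds the first 3 of them. The genes and the stretch were chosen by a rule that used the decay class itself, because residual domains are dense there, so the classes below are a description and no test was run on them. The stretch held 56 of the 43039 H3K9me3 domains in the deposited table, namely 27 residual, 13 slow, 15 intermediate and 1 fast. Csprs was annotated on GL456221, a sequence that is assigned to chromosome 1 but not placed along it. The 5 such unlocalized chromosome 1 sequences held another 48 domains and were described beside the stretch.

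The data come from the dTKO line of mouse embryonic stem cells. Its genotype is Suv39h1fl/fl; Suv39h2-/-; Setdb1fl/fl. Suv39h1, Suv39h2 and Setdb1 encode enzymes that place H3K9me3. All cells carried this genotype, and the treatment of the time course is auxin at 100 µg/ml with dTAG13 at 0.5 µM. Both are small molecules by which proteins fused to a degron tag are destroyed. Chromatin was collected at 0, 1, 3, 12, 24 and 48 h, with 0 h as the baseline, and was immunoprecipitated for H3K9me3 or HP1β or kept as an input for either. Each of the 216 samples is 1 sequencing run, with 54 runs in each of these 4 kinds and 9 per kind at each time. The series' design text gives 3 biological repeats, each sequenced in 3 runs. Which number in a sample's labels marks the repeat and which the run is unclear, and no value below uses that numbering. The tagged proteins are not named in the labels. Apart from the 0 h baseline, no untreated or wild-type group is among those used here. The table holds no expression values with which to check the cell type.

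The Sp100 family encodes nuclear proteins with SAND, PHD and bromodomain modules that read DNA and histones. Sp100 is a founding component of PML nuclear bodies, binds HP1 proteins and is induced by interferon. Sp110 and Sp140 are its relatives, expressed mainly in immune cells, and the mouse cluster has been linked to resistance to intracellular bacteria. In the mouse a chimera of Sp100 and Csprs sequence, Sp100-rs, has been amplified into a long repeat array at this place, which makes the region hard to assemble. H3K9me3 is the mark of constitutive heterochromatin and often covers such repeated gene clusters.

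Each domain carries 1 of 4 words for how its H3K9me3 behaved over the time course. The names fast, intermediate and slow give an order of decay, whereas the sources used here give neither the limits of the classes nor the exact meaning of residual. A class was assigned once per domain across the time course, so no value has a replicate error, and the depth behind it is unknown.

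Coding sequence of the family recurs in near-identical copies, and some of it is printed here to show how alike these copies are and which class lay on each. Sequences were read from the GRCm38.p6 (mm10) assembly, 5′ to 3′ along the gene, and capitals mark bases that differ from the first sequence of each set. The opening coding block of Sp140, a nuclear immune regulator, had 2 copies on the placed chromosome, each with 1 difference, and all 3 lay in residual domains.
Sp140 coding block 1, chr1:85600489-85600599, plus strand, residual domain: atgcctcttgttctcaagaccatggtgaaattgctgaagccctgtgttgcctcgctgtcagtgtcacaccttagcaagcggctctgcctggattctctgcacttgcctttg
Copy, chr1:85109928-85110038, minus strand, residual domain: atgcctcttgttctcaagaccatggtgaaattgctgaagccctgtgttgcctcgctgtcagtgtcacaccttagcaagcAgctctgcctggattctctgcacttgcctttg
Copy, chr1:85270632-85270742, minus strand, residual domain: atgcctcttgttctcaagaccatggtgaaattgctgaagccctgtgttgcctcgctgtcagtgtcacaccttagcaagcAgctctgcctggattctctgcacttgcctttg

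The second coding block of Sp100, the founding member, had 3 copies in the stretch with 2, 1 and 3 differences. All 4 sequences lay outside any domain of any class.
Sp100 coding block 2, chr1:85659703-85659862, plus strand, no domain: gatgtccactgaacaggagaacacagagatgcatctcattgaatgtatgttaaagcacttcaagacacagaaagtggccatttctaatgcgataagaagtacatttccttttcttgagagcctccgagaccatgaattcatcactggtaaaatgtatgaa
Copy, chr1:85041797-85041956, minus strand, no domain: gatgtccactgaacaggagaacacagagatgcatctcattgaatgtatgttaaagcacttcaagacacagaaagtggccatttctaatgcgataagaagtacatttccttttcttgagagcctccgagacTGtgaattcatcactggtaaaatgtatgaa
Copy, chr1:85317125-85317284, minus strand, no domain: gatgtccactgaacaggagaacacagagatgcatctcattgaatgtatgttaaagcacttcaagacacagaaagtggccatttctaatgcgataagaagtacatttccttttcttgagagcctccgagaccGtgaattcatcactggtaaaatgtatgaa
Copy, chr1:85536269-85536428, plus strand, no domain: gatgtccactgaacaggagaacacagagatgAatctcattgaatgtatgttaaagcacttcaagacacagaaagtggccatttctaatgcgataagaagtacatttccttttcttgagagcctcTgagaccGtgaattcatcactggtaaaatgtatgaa

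Csprs, the other parent of the amplified chimera, has 1 coding block of 888 bp, and its first 150 bases are shown with 3 of its 6 placed copies. The copies shown had 1, 1 and 8 differences in these bases. The 1 copy of the 6 in the stretch that lay in a slow domain is the second of them.
Csprs, first coding bases, GL456221:113904-114053, minus strand, residual domain: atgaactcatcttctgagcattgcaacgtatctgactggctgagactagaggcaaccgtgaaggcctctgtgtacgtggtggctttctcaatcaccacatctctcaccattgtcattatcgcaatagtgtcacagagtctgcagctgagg
Copy, chr1:84963669-84963818, plus strand, residual domain: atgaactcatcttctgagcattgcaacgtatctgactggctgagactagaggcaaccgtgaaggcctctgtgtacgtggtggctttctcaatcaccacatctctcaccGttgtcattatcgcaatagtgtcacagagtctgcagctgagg
Copy, chr1:85028695-85028844, minus strand, slow domain: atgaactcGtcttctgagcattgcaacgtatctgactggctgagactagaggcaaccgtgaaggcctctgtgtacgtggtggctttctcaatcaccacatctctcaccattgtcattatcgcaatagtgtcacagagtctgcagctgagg
Copy, chr1:85157550-85157699, minus strand, residual domain: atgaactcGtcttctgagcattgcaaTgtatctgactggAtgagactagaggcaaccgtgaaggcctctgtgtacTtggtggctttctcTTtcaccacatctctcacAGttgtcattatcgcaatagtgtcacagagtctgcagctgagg

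Residual domains were the most numerous class of the stretch. They made up 48.2% of its 56 domains, against 4.57% of the 42890 domains on all placed chromosomes. By length they covered 293.4 kb of the 441.6 kb in domains, or 66.4%, against 4.7% of the domain length on placed chromosomes outside the stretch. On chromosome 1 outside the stretch 62 of 3019 domains were residual (2.05%). The stretch is 1.02% of the chromosome by length and held 30.3% of its residual domains and 56.4% of its residual bases. Since the stretch was chosen for this density, these shares carry no weight of their own.

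A block was defined from the start of the first residual domain to the end of the last, at chr1:84962401-85643400. It spans 681.0 kb and holds all 27 residual domains by that definition. The block contains an assembly gap of 100.0 kb, at chr1:85347104-85447103, and residual domains lay on both sides of it. One ended at 85346400 and the other, the longest of the stretch with 48.3 kb, ran from 85447201 to 85495500. Of the 581.0 kb of known sequence in the block, 50.5% lay in residual, 10.5% in slow and 2.74% in intermediate domains. The remaining 210.5 kb lay in no domain, and the block held 0 fast domains.

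The limits of the block follow from the class itself, and the domains beyond them are described here. On the low side the 12 domains from 84121201 to 84703200 were intermediate or slow, and 252.3 kb without a domain followed. A slow domain of 2.7 kb then opened the cluster at 84955501, and the first residual domain began 27.3 kb past the end of Slc16a14, a gene of the monocarboxylate transporter family. On the high side the last residual domain ended at 85643400, and the next 217.2 kb had no domain. That empty interval holds Sp100, A630001G21Rik and Cab39, the gene of a scaffold protein of the LKB1 kinase. Beyond it came 1 slow domain of 24.9 kb and 1 fast domain of 1.2 kb. At the limits of the stretch itself, the domains just inside were intermediate (84121201 to 84123900) and fast (85919701 to 85920900), and those just outside were slow (83980501 to 83990400) and intermediate (86010601 to 86017200).

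**Figure D1:**
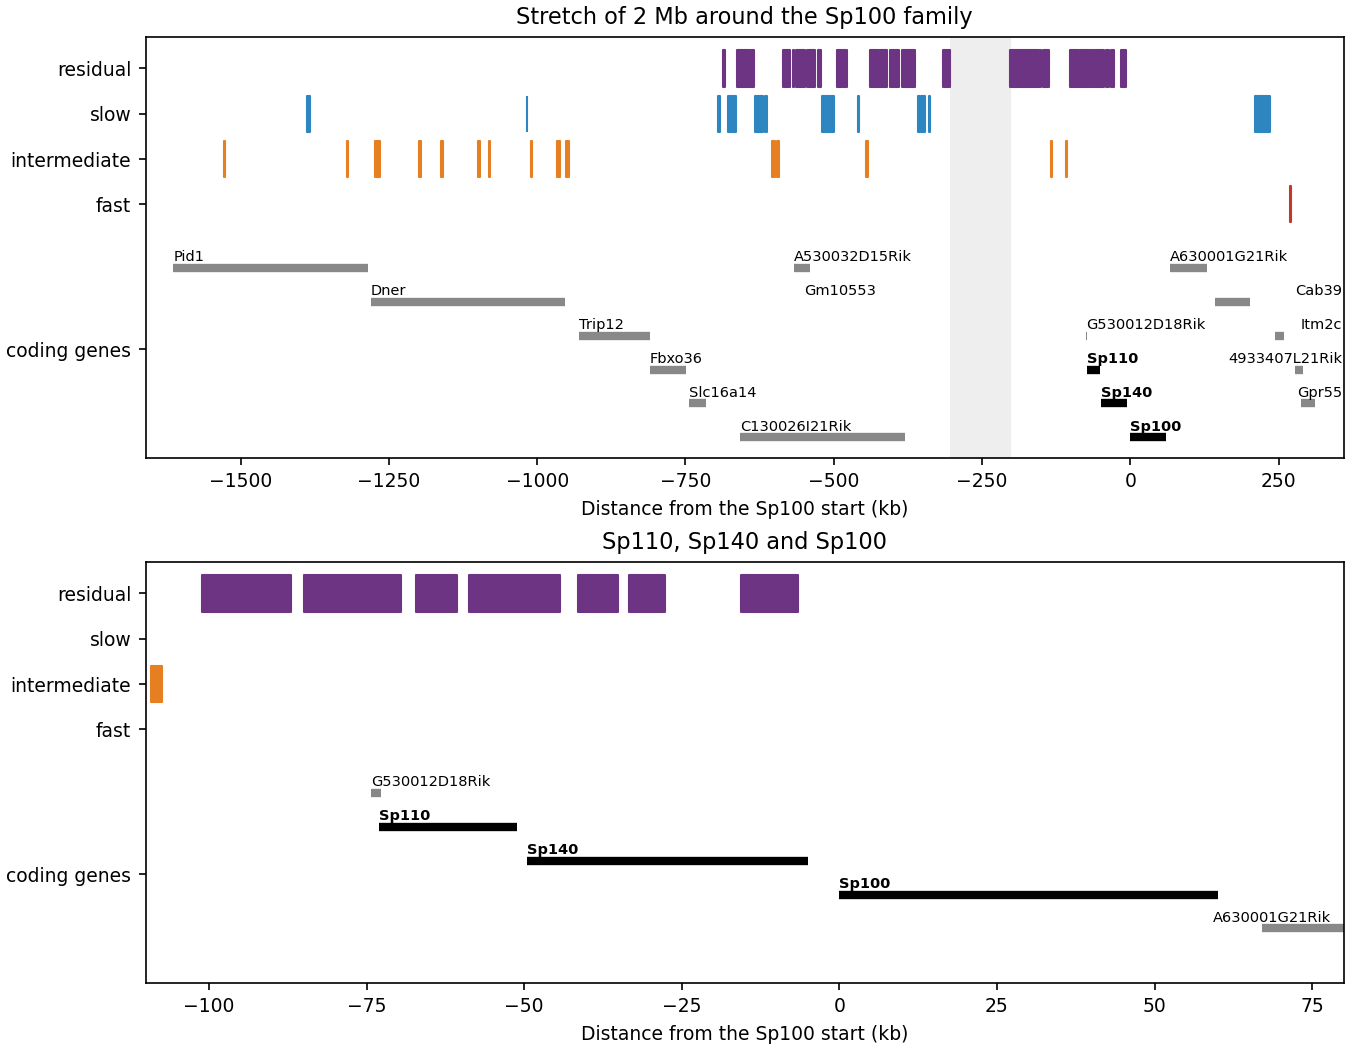
Decay classes of H3K9me3 domains (coloured boxes, 1 row per class) and coding genes (lines, the listed genes in black) against the distance from the Sp100 start in kb; the upper panel shows the 2 Mb stretch and the lower panel the family genes. The grey band is the assembly gap of 100.0 kb; residual boxes end 6.59 kb before the Sp100 start, and none lies on Sp100.

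Of the 4 listed genes, 3 met residual domains and 1 met no domain. No slow, intermediate or fast domain lay on any of them. As a background, 3.39% of 21938 coding genes on the placed chromosomes met a residual domain and 23.4% met a domain of any class. The rule used these classes, so nothing is read from that difference.

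Sp110 spans chr1:85576899-85598817 on the minus strand and was the most fully covered of the family genes placed on the chromosome. Its body of 21.9 kb lay in 3 residual domains over 80.8% of its length, and all of its exon bases (100.0%) were inside them. The domains took up 3.50, 6.60 and 7.62 kb of the gene. The last of them, at 85591201 to 85605600, held the start of Sp110.

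The same domain held the start of Sp140. The 2 genes are transcribed away from each other from starts 1561 bp apart, at 85598817 for Sp110 and 85600378 for Sp140. Sp140 spans chr1:85600378-85645037 on the plus strand, and 58.7% of its 44.7 kb lay in 4 residual domains. These held 72.0% of its exon bases. Within the gene the domains measured 5.22, 6.30, 5.70 and 9.00 kb, and the last stopped at 85643400, short of the end of the gene.

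Sp100 lies downstream on the plus strand at chr1:85649988-85709998. Its start came 4.95 kb past the end of Sp140 and 6.59 kb past the last residual domain. None of its 60.0 kb lay in a domain of any class. Adding 5 kb on either side still met 0 domains.

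Csprs spans GL456221:111572-163011 on the minus strand. Of its 51.4 kb, 78.8% lay in 2 residual domains, which took up 19.5 and 21.0 kb of the gene. Its annotated start, at the high end of the gene, lay outside both domains. Its single coding block was inside the residual domain at 87901 to 131100.

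The upstream sequences of Sp110 and Sp100 are shown because the first lay in a residual domain and the second in none. They are the 250 bases before the RefSeq start on GRCm38.p6. Capitals mark matches, on either strand and overlapping ones merged, to AANNGAAA, a core motif of interferon regulatory factors. Sp100 had 2 matches and Sp110 had 0, and 21.3% of 32851 promoters of the same length held at least 1. A longer motif was searched too, made of GAAA repeated after any 2 bases as in interferon-stimulated response elements. It had 0 matches upstream of Sp100 and Sp110, and 2.98% of promoters held it. The Sp140 window, chr1:85600453-85600702, also had 0 matches to either motif. That window lies inside the annotated gene and contains coding block 1, so it gives no upstream result for Sp140. A match is a description of letters and not a bound site.
Sp110 upstream, chr1:85598811-85599060, minus strand, residual domain: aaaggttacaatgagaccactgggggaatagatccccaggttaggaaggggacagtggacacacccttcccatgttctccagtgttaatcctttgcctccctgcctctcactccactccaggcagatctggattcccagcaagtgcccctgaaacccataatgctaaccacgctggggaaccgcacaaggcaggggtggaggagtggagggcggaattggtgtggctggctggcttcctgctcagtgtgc
Sp100 upstream, chr1:85649738-85649987, plus strand, no domain: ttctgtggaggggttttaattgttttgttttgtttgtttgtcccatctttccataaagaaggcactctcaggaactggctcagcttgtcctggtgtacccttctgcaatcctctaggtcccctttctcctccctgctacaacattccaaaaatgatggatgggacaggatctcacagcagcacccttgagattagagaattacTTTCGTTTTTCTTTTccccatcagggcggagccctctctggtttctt

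The stretch holds 17 coding genes, of which 6 met a residual domain, 2 met domains of other classes only and 9 met none. Besides Sp110 and Sp140, the genes with residual domains were C130026I21Rik, A530032D15Rik, Gm10553 and G530012D18Rik. C130026I21Rik, a long annotation of 277.9 kb that overlaps many others, met 15 residual, 4 slow and 3 intermediate domains, and 44.7% of its body and 73.6% of its exon bases were residual. A530032D15Rik had 76.5% of its body in 3 residual domains. Gm10553 (0.372 kb) and G530012D18Rik (1.62 kb) lay wholly inside 1 residual domain each. The start of each of these 6 genes lay in a residual domain.

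Genes to either side had none. Pid1, which encodes an adaptor with a phosphotyrosine-binding domain, met 1 slow and 2 intermediate domains over 2.47% of its body. Dner, the gene of a Notch ligand of neurons, met 1 slow and 7 intermediate domains over 9.01%. The ubiquitin ligase gene Trip12, Fbxo36 and Slc16a14 on the low side met no domain. Nor did Sp100, A630001G21Rik, Cab39, Itm2c, 4933407L21Rik and the lipid receptor gene Gpr55 on the high side.

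Of the 16 pseudogenes annotated in the stretch, 13 met a residual domain, 1 met another class only and 2 met none. On all placed chromosomes 1.23% of 13523 pseudogenes met a residual domain. The stretch was chosen for its residual domains, which cover 50.5% of the known sequence of the block, so nothing is read from the count. Of the 22 remaining noncoding annotations, 8 met a residual domain and 14 met no domain. All 8 overlap the block and the 14 lie outside it. No share over all such annotations was computed, so nothing is read from this split either. The 5 noncoding annotations with the most residual bases were Gm2619 (70.8 kb), Gm16026 (18.8 kb), Gm2427 (10.5 kb), Gm18342 (9.01 kb) and Gm6264 (8.14 kb). All 5 are annotated as pseudogenes.

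**Figure D2:**
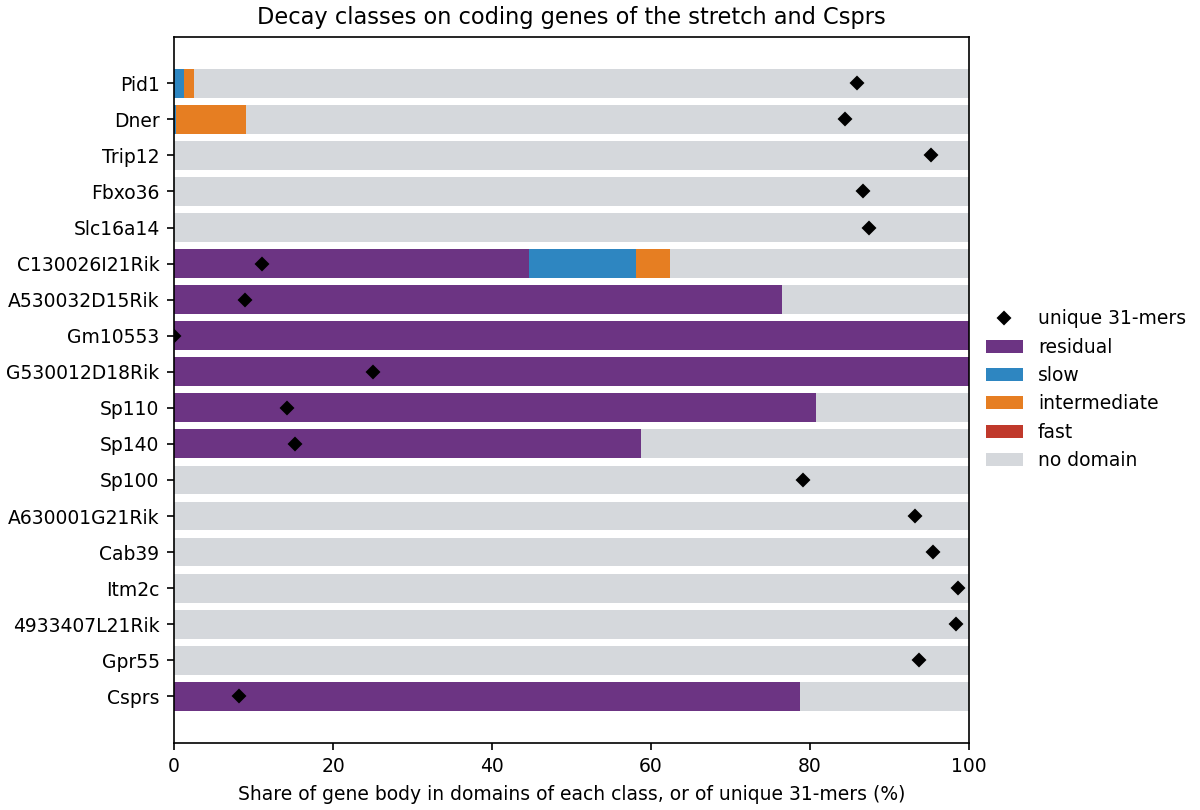
Share of each coding gene's body in domains of each class (stacked bars, %) and share of 31-base words found once in the assembly (black diamonds, %), for the coding genes of the stretch in genome order and for Csprs. Bars with residual length belong to genes with 25.0% unique words or fewer, whereas Sp100, with no domain, had 79.2%.

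The family members differed in how much of their sequence is single copy. Words of 31 bases were read every 100 bp and counted in the C57BL/6J assembly, unlocalized and unplaced sequences included. The share of words found once was 14.2% in Sp110, 15.2% in Sp140 and 8.16% in Csprs. In Sp100 it was 79.2%, and in the other 8 coding genes of the stretch that met no domain it ranged from 86.7% in Fbxo36 to 98.6% in Itm2c. All 6 coding genes of the stretch with residual domains had 25.0% or less. The pairing did not hold on the unlocalized sequences. There AC133103.3 and AC168977.2 met no domain, and each had 6.67% unique words. A read from a repeated word fits more than 1 place, so the class at 1 copy can reflect others. The part of shared reads in these classes was not tested.

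Copies of the coding blocks gave a closer view of which exons lay in domains. A block is a run of coding bases merged over the annotated transcripts and numbered from the gene start, and a copy had to match at least 80% of its length at 90% identity or more. Only copies in the stretch and on the unlocalized chromosome 1 sequences were classed, by the domain at their middle. Another 9 copies of Sp110 blocks, 28 of Sp140 blocks and 2 of Sp100 blocks lay elsewhere in the assembly and were not classed. Copies of adjacent blocks often lie side by side in 1 copy of the gene, so they are not separate members. For scale, residual domains cover 50.5% of the known sequence of the block and 50.7% of the unlocalized sequences. In the block 210.5 of 581.0 kb lies in no domain, and on the unlocalized sequences 331.7 of 811.4 kb does.

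All 11 blocks of Sp110 had copies in the region, 85 in number, of which 16 were in the stretch and 69 on the unlocalized sequences. Of the 85 copies, 66 lay in residual domains, 3 in slow domains and 16 in none. Copies of blocks 1 to 3 and 9 to 11 were all residual. The 16 copies outside domains were of blocks 4 to 8 and lay on GL456210 and GL456221.

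Of the 18 blocks of Sp140 long enough to search, 17 had copies in the region, 120 in number, with 83 in residual domains, 3 in slow domains and 34 in none. Where the block of Sp140 itself was residual, 71 of 85 copies were residual. Where it lay in no domain, 12 of 35 copies were residual and 23 were outside any domain. Blocks 10 and 20 were outside domains in Sp140 and in all of their 6 and 7 copies, whereas block 11 was outside in Sp140 and residual in all 8 copies.

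Of the 23 blocks of Sp100 that were searched, only blocks 2 and 3 had copies in the region. They had 7 and 8 copies, at 98.1 to 100% identity. All 15 copies lay outside every domain, as did the Sp100 blocks themselves. The copies in the stretch sat inside the residual-bearing block, in gaps between domains. On the unlocalized sequences, the coding genes AC133103.3 and AC168977.2 are the only 2 of 20 that met no domain, and each contains a copy of both blocks. Those copies are among the 15, so these genes are no separate observation.

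Csprs had 8 copies of its coding block, 6 in the stretch and 2 on the unlocalized sequences, at 97.7 to 99.4% identity. Of these, 7 lay in residual domains. The remaining copy, at 85027957 to 85028844 with 98.4% identity, lay in a slow domain of 12.3 kb.

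**Figure D3:**
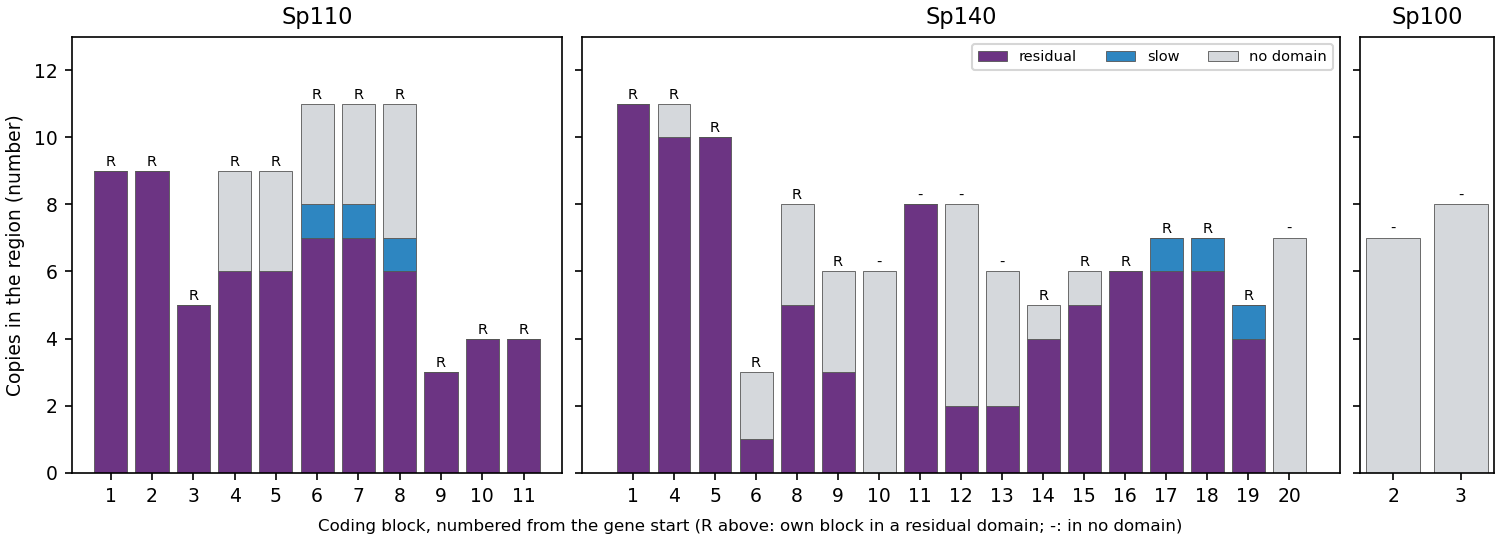
Number of copies of each coding block in the stretch and on the unlocalized chromosome 1 sequences, coloured by the domain class at the copy, for Sp110, Sp140 and Sp100; the letter above a bar gives the class of the gene's own block. All 15 copies of Sp100 blocks 2 and 3 lie outside domains, whereas 66 of 85 Sp110 copies and 83 of 120 Sp140 copies are residual.

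The residual domains of the stretch were long and repeated. Their median width was 9.0 kb (range 1.8 to 48.3), against 2.7 kb for the 1933 residual domains elsewhere on placed chromosomes. Of the 27, 19 were over 6 kb (70.4%), against 325 of those elsewhere (16.8%). The median GC content was 44.5%, against 47.9% elsewhere, and the median share of soft-masked (repeat) bases was 30.5%, against 16.8%. A median of 12.3% of their words were unique, against 95.8% elsewhere, and 78.4% were found 2 to 99 times, against 2.22%. All 27 had under 50% unique words, as did 484 of the 1933 elsewhere (25.0%) and 12 of the 62 on the rest of chromosome 1 (19.4%). With chromosome X left out, the count elsewhere was 307 of 1755 (17.5%). Nearly all residual domains of chromosome X were thus under 50% unique too, so this trait is not particular to the stretch.

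The copies were largely local. In the median residual domain 60.5% of words had all of their copies within the stretch and the unlocalized chromosome 1 sequences, and the median word had 8 copies. The share was highest in the first residual domain, at 84962401 to 84966600, with 97.6% local words and 0 unique ones. It was lowest, 29.7%, in the domain at 85211701 to 85225500, where 37.0% of words had 100 or more copies. Pooled over the block, local words made up 64.0% outside domains and 55.5% in residual domains. They made up 38.7% in slow and 37.1% in intermediate domains. Local copying was thus not particular to the residual class.

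Within the block, residual domains and the sequence between domains were repeated to a similar degree. In the block, 11.3% of words in residual domains were unique, and 11.3% in the sequence outside domains. Words found 2 to 99 times made up 72.1% in residual domains and 74.0% outside domains. The slow and intermediate domains of the block held more high-copy repeats, with 35.8% and 45.9% of words found 100 times or more, against 16.6% in residual domains and 14.7% outside domains. Outside the block, the domain-free sequence of the stretch was 87.7% unique.

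**Figure D4:**
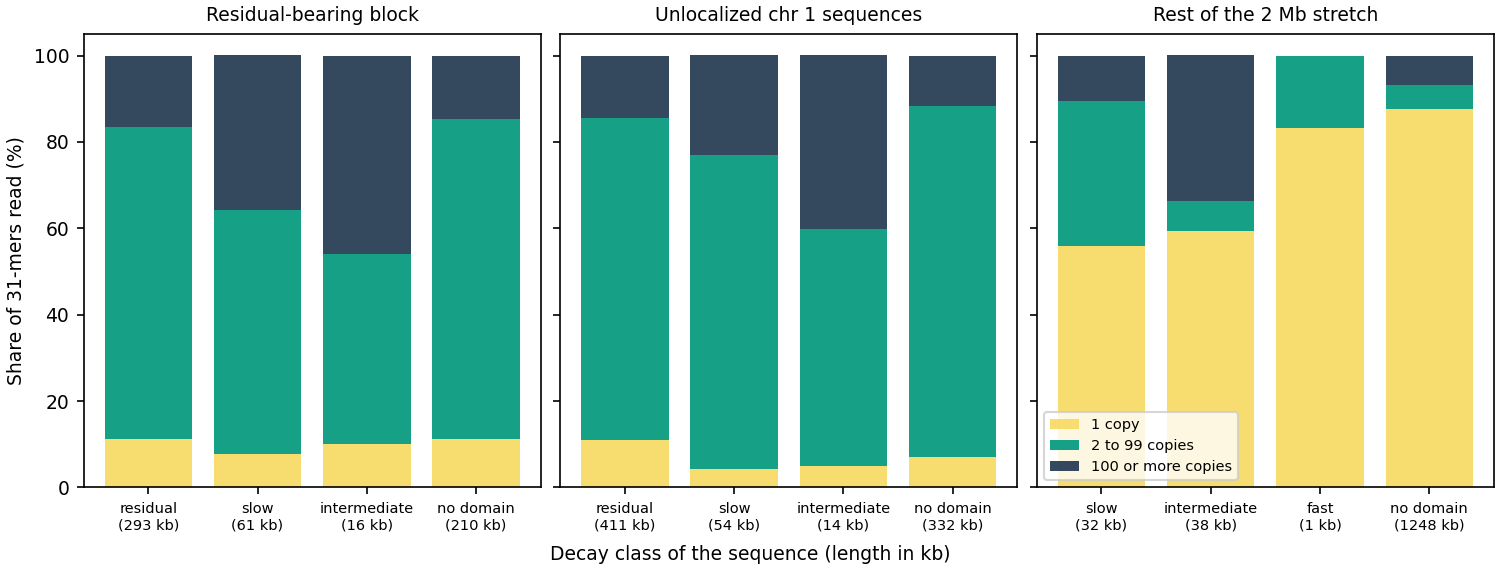
Share of 31-base words with 1 copy, 2 to 99 copies, or 100 or more copies in the assembly (stacked, %), by decay class, in the residual-bearing block, on the unlocalized chromosome 1 sequences and in the rest of the stretch; lengths are in kb. In the block, residual and domain-free sequence both have 11.3% unique words, against 87.7% in domain-free sequence of the rest of the stretch.

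The unlocalized sequences of chromosome 1 were also rich in residual domains. Of their 48 domains, 29 were residual, 15 slow and 4 intermediate, and 0 were fast. Residual domains covered 50.7% of their 811.4 kb, and 50.5% of the known sequence of the block. They held 29 of the 39 residual domains found on all unlocalized and unplaced sequences, and the other such sequences had 10 residual domains of 101. The residual share of length was 45.8% on GL456210, 57.5% on GL456211, 56.8% on GL456212 and 51.9% on GL456221. GL456213, of 39.3 kb and with no coding gene, held no domain.

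The residual domains of these sequences had a median width of 7.2 kb, a median of 10.6% unique words and a median word copy number of 8. The longest, of 70.8 kb, ran from 82801 to 153600 on GL456212. Of 20 coding genes annotated on the unlocalized sequences, 18 met a residual domain and 13 lay wholly inside residual domains. AC168977.1, of 21.9 kb, was the longest of those 13. An overlap of 1 bp sufficed, and AC132444.1 was counted with 1.61% of its body. On the placed chromosomes 3.39% of 21938 coding genes met a residual domain. Residual domains cover 50.7% of the unlocalized sequences, so nothing is read from the count.

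**Figure D5:**
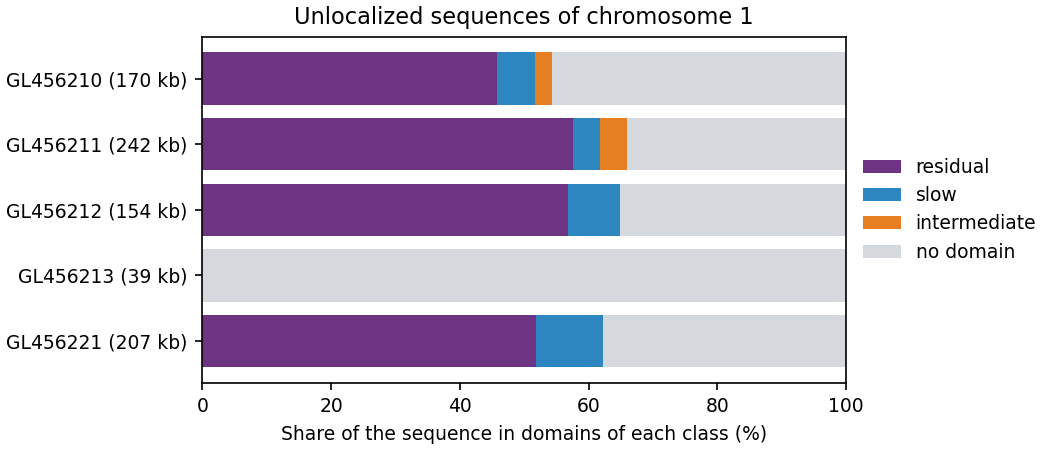
Share of each of the 5 unlocalized chromosome 1 sequences in domains of each class (stacked bars, % of its length). Residual domains cover 45.8 to 57.5% of 4 sequences, and GL456213 holds no domain.

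Genes related to the family by domain or by partner were also looked up at their other places in the genome. The background for both lists is the 23.4% of coding genes that met any domain and the 3.39% that met a residual one. The 4 genes with a SAND domain elsewhere, Aire, Deaf1, Gmeb1 and Gmeb2, met 0 domains. Aire drives expression of tissue antigens in the thymus, and Deaf1, Gmeb1 and Gmeb2 are transcription factors. Of 15 genes of PML bodies and HP1 partners, only Hipk2 met a domain, an intermediate one of 1.2 kb over 0.66% of its body. Hipk2 encodes a nuclear kinase found at PML bodies. The 14 without a domain included Pml, Daxx, Atrx, Trim28 and the HP1 genes Cbx1, Cbx3 and Cbx5. With so few genes in each list, 0 with a residual domain is near the background.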

How the data were processed

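Processed values from ChIP-seq of H3K9me3 were used: 1 deposited table with a position, a decay class in words and a score per domain. The authors made 1 class per domain across the time course; the class has no unit (other), and the deposited score is the same for every domain and was not interpreted. Builds named in the submitters' processing notes are mm10, GRCm38, mm9 and dm6, and tools named there are bedtools, deepTools, SAMtools 1.1 and Bowtie2 2.3.4.1. The sources used here do not give how reads with several matches were placed, how domains were called or where class limits lay. Depth is unknown, and the table has 0 columns of sample values, so samples were not compared and no test was run.

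The members and gene lists were chosen with earlier results of these data known. Positions are printed 1-based on mm10. All domain limits lay on a grid of 300 bp and 0 domains ran past a sequence end of GRCm38.p6. Genes are GENCODE vM21, and the overlap needed was 1 bp. Named genes are the 4 listed genes, every gene of the stretch with a residual domain (coding genes in full, other types by count with the 5 of most residual bases), the coding genes beside the outermost residual domains, and list members with a domain; others are named to complete a count. Words of 31 bases were read every 100 bp, with counting code tested on simulated data. Coding blocks of at least 40 bp were searched with blastn 2.17.0. The scripts ran in Python 3.11.15 with matplotlib 3.10.9, numba 0.67.0, scipy 1.17.1, pandas 2.3.3 and numpy 2.4.6. Alternatives changed the stretch, the overlap, the domain width, the joining of neighbours and the word length.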

Additional observations from a re-analysis of the deposited data

How the results depend on the processing

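The residual share of domains in the stretch, 48.2%, was 66.4% by covered bases and 28.6% of 35 domains once neighbours of 1 class under 5 kb apart were joined. It was 0% among the 8 domains with at least 50% unique words, since 0 of the 27 residual domains met that limit. It was 55.1% in a narrower stretch, 38.4% from 83 to 87 Mb and 50.0% for domains of at least 1.5 kb. Residual domains on Csprs numbered 1 in place of 2 by domain midpoint, by at least 50% of the domain inside the gene, and by exons only. By midpoint and by at least 50% of the domain inside the gene, Sp110 had 2 residual domains in place of 3. Under the same 2 rules Sp140 had 3 in place of 4. The counts on Sp110 and Sp140 were unchanged under the other overlap rules, and Sp100 had 0 under every rule. The median unique share of residual domains was 20.7% with 50-base words and 8.77% with 24-base words, against 12.3%. With 5 kb added to either side, 2 SAND-domain genes elsewhere met a domain in place of 0 (Aire slow, Gmeb1 intermediate), and 2 PML body and HP1 partner genes in place of 1 (Cbx3, intermediate, joined Hipk2); 0 were residual. No alternative was run for the gene counts of the stretch or for the unlocalized sequences. No paired analysis was possible because the table holds no value per sample or repeat. With no value per library or time, neither the spread between cultures nor the depth behind a class could be measured, and copies that share reads cannot be told apart.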

Other observations

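Ranked by residual bases in fixed windows of 2 Mb on the placed chromosomes, the window from 84 to 86 Mb on chromosome 1 was second, with 293.4 kb in 27 domains. The first was on chromosome X from 32 to 34 Mb, with 383.1 kb in 62 domains, and the third on chromosome X from 4 to 6 Mb, with 273.0 kb in 41 domains. Among the other windows of chromosome 1 with any domain the highest had 73.2 kb of residual length, in the window that starts at 88 Mb with 9 residual domains, and 62 windows had none. The residual domain of 48.3 kb beside the assembly gap ranked 4 by width among the residual domains of the placed chromosomes.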
